A study of Mus musculus with 8 samples.

Results

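The 10 sugar transporter genes described here are 6 facilitated transporters of the Slc2a (GLUT) family, namely Slc2a1, Slc2a2, Slc2a3, Slc2a4, Slc2a5 and Slc2a8, and 4 sodium-coupled transporters of the Slc5a (SGLT) family, namely Slc5a1, Slc5a2, Slc5a9 and Slc5a10. They were chosen by gene symbol, with no measured value in the rule, from 52195 genes in the table. Bulk polyadenylated RNA was sequenced from whole pieces of kidney, liver, lung and small intestine of C57BL/6 mice (male C57BL/6J in the study's methods) that were 6 to 10 weeks old, with 2 libraries per tissue. All animals were untreated and no allele was engineered, so the 4 tissues are the only groups and none serves as a control. The 2 libraries of a tissue came from separate mice, and the 4 tissues were taken from each mouse, but the labels do not say whether a replicate number marks the same mouse in every tissue. Values are FPKM, sequenced fragments scaled to gene length and library depth, so genes of one library can be compared with each other per length.

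Glucose, galactose, fructose and mannose cross membranes by 2 kinds of carrier. Slc5a proteins couple uptake to the inward sodium gradient that the sodium pump maintains, and so can concentrate sugar from the gut lumen or the forming urine into an epithelial cell. Slc2a proteins let sugar pass down its own gradient, which carries it out of absorbing epithelial cells into blood, and into or out of most other cells.

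The files hold between 9164183 and 21444670 reads on genes per library, as inferred from the smallest step between FPKM values. The tissue labels were checked against marker genes that define each organ. The summed FPKM of 4 proximal tubule markers was 942 and 1364 in the kidney libraries and at most 6.04 elsewhere. The 4 hepatocyte markers summed to 35213 and 41084 in liver, the 4 enterocyte markers to 6094 and 7597 in small intestine, and the 3 alveolar type 2 markers to 14116 and 16296 in lung. Each set was higher in its own tissue than in any other library. Whole pieces also hold neighbouring tissue. Cardiac muscle markers summed to 148 and 149 in lung and pancreatic acinar markers to 567 and 1207 in small intestine, where 4 of the 5 acinar genes were in the table. In bulk samples fewer cells of a type and less RNA per cell cannot be told apart.

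The sequence just before the start of 4 of the genes is shown because these 4 led the summed transcript level in one tissue each or, for Slc5a10, were near 0 outside one tissue. All are from RefSeq on GRCm38.p6, written 5′ to 3′ on the strand of the gene, and they stop where either annotation places the first base of the transcript. Slc5a10 is from chr11:61720827-61721049 on the minus strand, Slc5a1 from chr5:33103969-33104218 on the plus strand, Slc2a2 from chr3:28697653-28697902 on the plus strand and Slc2a1 from chr4:119108495-119108710 on the plus strand.
Slc5a10: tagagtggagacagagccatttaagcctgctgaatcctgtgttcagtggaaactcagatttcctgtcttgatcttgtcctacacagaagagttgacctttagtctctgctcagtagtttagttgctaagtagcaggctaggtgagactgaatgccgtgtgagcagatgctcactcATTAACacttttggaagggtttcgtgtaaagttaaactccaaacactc
Slc5a1: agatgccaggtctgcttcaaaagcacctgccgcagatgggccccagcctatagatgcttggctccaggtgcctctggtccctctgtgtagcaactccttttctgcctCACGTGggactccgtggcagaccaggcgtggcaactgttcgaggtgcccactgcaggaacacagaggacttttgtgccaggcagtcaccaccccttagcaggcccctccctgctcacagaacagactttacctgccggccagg
Slc2a2: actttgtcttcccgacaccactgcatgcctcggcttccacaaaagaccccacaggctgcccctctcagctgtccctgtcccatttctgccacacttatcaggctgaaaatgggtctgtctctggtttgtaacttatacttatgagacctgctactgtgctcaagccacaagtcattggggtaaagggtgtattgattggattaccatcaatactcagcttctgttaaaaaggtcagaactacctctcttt
Slc2a1: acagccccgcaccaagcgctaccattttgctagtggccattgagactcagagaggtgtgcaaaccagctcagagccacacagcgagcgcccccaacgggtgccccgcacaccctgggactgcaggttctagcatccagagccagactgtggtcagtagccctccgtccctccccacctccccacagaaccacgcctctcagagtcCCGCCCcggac
Capitals mark the motifs that were searched on both strands in windows of 250 bases before and 50 bases after each start. RefSeq gave 2 starts for Slc5a10. ATTAAC in the window printed for it is GTTAAT read on the other strand and begins at position -75 from that start, and the window of the other start held none of the motifs. CACGTG, the E-box, begins at position -143 from the start of Slc5a1. CCGCCC in the Slc2a1 window begins at position -45 and is GGGCGG, the GC box, read on the other strand. The bases of that window not printed held another GC box at -20 and a TATA box at position 29 after the start. The Slc2a2 window held none of the motifs, and no motif overlapped another in these windows. Of 32851 promoter windows of the same length, 7.10% held GTTAAT, 7.15% CACGTG, 35.7% GGGCGG and 13.6% the TATA box TATAAA, so single matches are common letters and describe the windows only.

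Slc5a2 (SGLT2, chromosome 7, 128265657 to 128272430) is the low-affinity, high-capacity carrier that reclaims most filtered glucose in the early proximal tubule. Its FPKM was 117 and 76.8 in the 2 kidney libraries. In the other 6 libraries it lay between 0.0556 and 0.389, which corresponds to 2 to 11 reads. The lower kidney library was 198-fold above the highest library of any other tissue. Kidney exceeded the mean of the other 3 tissues by 6.35 ± 0.21 (SE) on the log2(FPKM + 1) scale (limma, adjusted p = 8.58e-07). Its exons share 597 of 2897 bases (20.6%) with BC017158 on the opposite strand, which was at 1.07 to 3.63 FPKM in all libraries, and without strand the few reads outside kidney cannot be assigned to either gene.

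Slc5a10 (SGLT5, chromosome 11, 61672781 to 61720826), a carrier of mannose and fructose, was also highest in kidney. Its kidney libraries were at 29.6 and 25.6 FPKM. No read was found in either liver library or in the second lung library, and the remaining libraries held 1 to 5 reads, or 0.0452 to 0.217 FPKM. Set against the limit of 3 reads per library, kidney was at least 212-fold higher than liver. The difference of kidney from the other tissues was 4.74 ± 0.14 (SE) on the log2(FPKM + 1) scale (limma, adjusted p = 6.85e-07). Here, 393 of 2365 exon bases (16.6%) are shared with the antisense gene Fam83g, which was at 0.146 to 2.57 FPKM.

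Slc5a1 (SGLT1, chromosome 5, 33104219 to 33162870) is the carrier through which glucose and galactose enter from the gut lumen, and it also works in the late proximal tubule. It had the highest FPKM of any of the 10 genes in any library, 312 and 524 in small intestine. Kidney followed with 15.8 and 9.90, lung with 2.94 and 1.22 and liver with 0.877 and 0.920. The small intestine mean was 32.6-fold above that of kidney, and no kidney library came near the intestinal ones. The difference of small intestine from the mean of the other tissues was 6.58 ± 0.29 (SE) on the log2(FPKM + 1) scale (limma, adjusted p = 1.71e-06). The 2 intestinal libraries themselves differed by 0.75 on that scale, the widest replicate gap of the 10 genes in that tissue.

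Slc5a9 (SGLT4, chromosome 4, 111875375 to 111902918), which carries mannose and other hexoses, was shared by both absorbing tissues. Its FPKM was 6.86 and 8.55 in small intestine and 6.63 and 3.54 in kidney. Lung had 0.198 and 0.233, and liver had no read in one library and 2 in the other. Small intestine was nominally above kidney in both libraries, but the difference of 0.56 ± 0.26 (SE) on the log2(FPKM + 1) scale was not called (limma, adjusted p = 0.114). Each of them exceeded the mean of the other 3 tissues by more than the threshold, small intestine by 2.16 ± 0.21 (SE) and kidney by 1.42 ± 0.21 (SE) in log2 units.

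**Figure D1:**
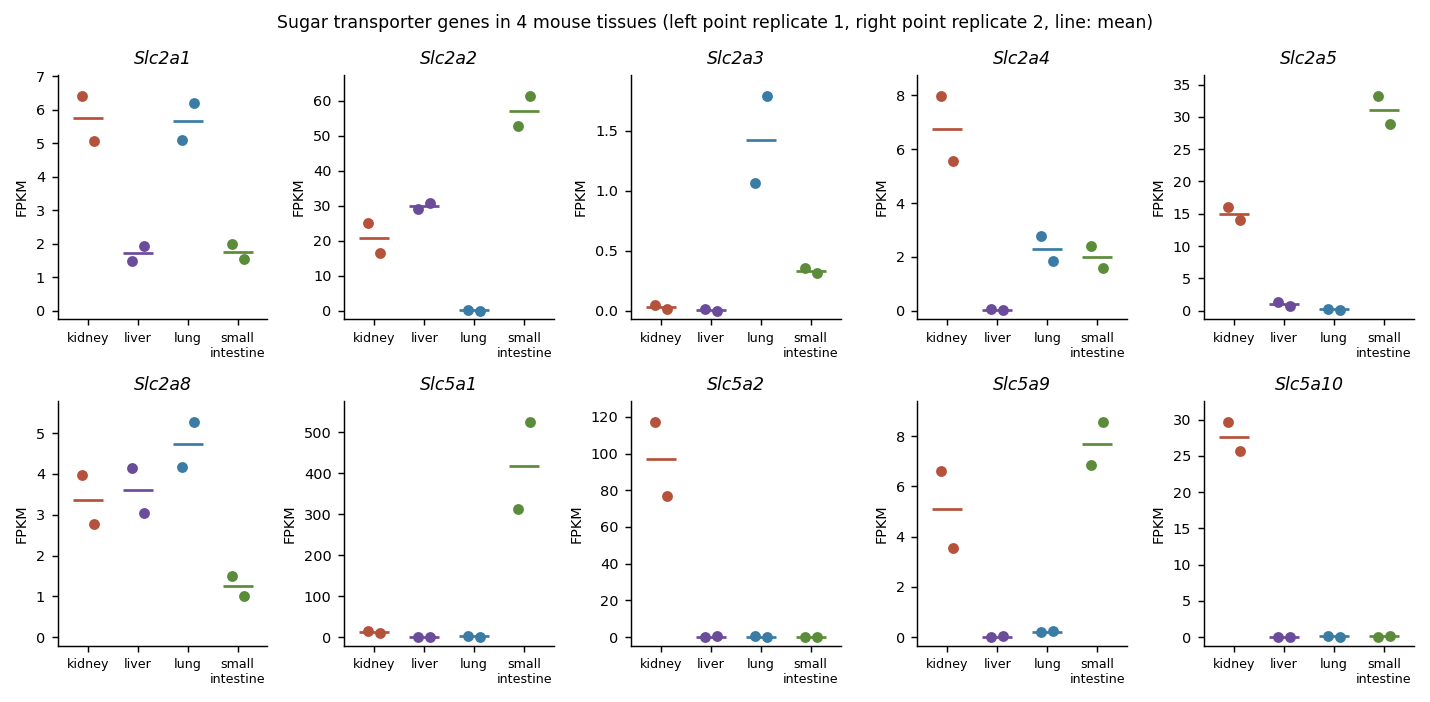
FPKM (vertical axes, linear, each gene on its own scale) of the 10 genes in the 4 tissues, with 1 point per library and a line at the mean of 2. Slc5a2 and Slc5a10 stand at 76.8 to 117 and 25.6 to 29.6 FPKM in kidney and near 0 elsewhere, and Slc5a1 reaches 312 and 524 FPKM in small intestine.

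Slc2a2 (GLUT2, chromosome 3, 28697903 to 28731359) is the high-capacity carrier of hepatocytes and of the basolateral side of absorbing epithelia, and is also the glucose carrier of mouse pancreatic beta cells. Small intestine had 52.7 and 61.3 FPKM, liver 29.1 and 30.7, and kidney 25.1 and 16.4. Lung had 0.249 and 0.0699, that is, 14 and 5 reads. It was thus the one gene of the 10 above 10 FPKM in 3 tissues, and the intestinal mean was 358-fold above that of lung. Small intestine exceeded liver by 0.91 ± 0.22 (SE) on the log2(FPKM + 1) scale, past the threshold on the adjusted p of limma (0.00882) but not past that on size, and liver and kidney differed by 0.54 ± 0.22 (SE; adjusted p = 0.0917). Beta cell markers summed to 1.93 and 0.860 FPKM in small intestine and at most 0.105 elsewhere, and their part in its Slc2a2 was not tested.

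Slc2a5 (GLUT5, chromosome 4, 150119283 to 150144169) takes up fructose at the luminal membrane. It was at 33.2 and 28.9 FPKM in small intestine and at 16.1 and 14.0 in kidney. Liver was at 1.32 and 0.769, and lung at 0.271 and 0.189. Small intestine and kidney differed by 1.002 ± 0.19 (SE) on the log2(FPKM + 1) scale, just past the size threshold (limma, adjusted p = 0.00396). Both tissues stood far above liver, from which kidney differed by 2.98 ± 0.19 (SE; adjusted p = 1.34e-05) in the same units.

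Slc2a4 (GLUT4, chromosome 11, 69942539 to 69948188) is the insulin-responsive carrier of muscle and fat. Among these tissues it was highest in kidney, at 7.98 and 5.55 FPKM. Lung had 2.77 and 1.85, small intestine 2.40 and 1.57, and the 2 liver libraries held 2 reads and 1 read. Kidney exceeded lung by 1.23 ± 0.24 (SE) on the log2(FPKM + 1) scale (limma, adjusted p = 0.00260), whereas lung and small intestine overlapped. The 4 adipocyte markers summed to 0.161 and 0.541 FPKM in kidney, 5.32 and 3.80 in small intestine and 13.0 and 7.86 in lung, and the 4 skeletal muscle markers were at 0 in both kidney libraries, at 8.01 and 8.85 in small intestine and at 37.5 and 4.57 in lung. Cardiac muscle markers summed to 1.45 and 0.809 in kidney, 149 and 148 in lung and 7.84 and 8.98 in small intestine. Smooth muscle markers summed to 18.2 and 16.2 in kidney, 165 and 168 in lung and 171 and 136 in small intestine. The part of muscle or fat in the lung and intestinal values was not tested.

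Slc2a1 (GLUT1, chromosome 4, 119108711 to 119137983), the carrier of barrier endothelium and many dividing cells, varied least with tissue together with Slc2a8. Kidney had 6.41 and 5.08 FPKM and lung 5.11 and 6.197, and these libraries overlapped. Small intestine with 1.98 and 1.54 and liver with 1.49 and 1.93 overlapped as well. The gap between the 2 pairs, lung against small intestine, was 1.27 ± 0.20 (SE) on the log2(FPKM + 1) scale (limma, adjusted p = 0.00101). In lung, erythroid markers summed to 10488 and 13425 FPKM and endothelial markers to 247 and 292, against at most 1290 and 12.7 elsewhere, and their part in the lung value was not tested.

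Slc2a3 (GLUT3, chromosome 6, 122727809 to 122801640), the high-affinity carrier of neurons that platelets and leukocytes also use, was the lowest of the 10 at its highest tissue. Lung had 1.06 and 1.79 FPKM from 75 and 161 reads, and small intestine 0.354 and 0.317. Kidney libraries held 7 and 2 reads and liver libraries 1 read and none. Lung exceeded the mean of the other tissues by 1.104 ± 0.12 (SE) on the log2(FPKM + 1) scale (limma, adjusted p = 8.23e-05), but by only 0.89 without the second lung library and by 0.66 after median-of-ratios scaling, both below the size threshold. Neutrophil markers in lung summed to 65.2 and 336 FPKM and platelet markers to 32.1 and 51.7, higher in the same library as Slc2a3. Their part in it was not tested.

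Slc2a8 (GLUT8, chromosome 2, 32972990 to 32982083) is a carrier of intracellular membranes. Lung had 4.18 and 5.27 FPKM, liver 4.15 and 3.05 and kidney 3.97 and 2.77. No pair of these 3 tissues passed the test, and the lower lung library was barely above the higher liver library. Small intestine was lower, at 1.498 and 1.02, by 1.105 ± 0.19 (SE) on the log2(FPKM + 1) scale against the mean of the others (limma, adjusted p = 0.00197), and by 0.95 without its second library, where the call was lost.

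Each tissue was next compared with the mean of the other 3, a comparison that asks where each transporter is used at the transcript level. A gene was called at an adjusted p under 0.05 and a log2 difference over 1. All 10 genes passed the filter on low values (at least 2 libraries with 1 FPKM or above). Of these, Slc2a3, Slc5a2 and Slc5a10 reached that level in 1 tissue alone, so that a difference was bound to appear, and the counts that follow describe the genes and are no test of them as a set.

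In kidney, 5 of 10 transporter genes were called higher, against 8.65% of the 16328 genes tested, and none was called lower, against 16.1%. They were the kidney-restricted pair Slc5a2 and Slc5a10, then Slc2a5 (1.89), Slc2a4 (1.83) and Slc5a9 (1.42) in log2 units. The median difference of the 10 was 1.14, with -0.34 over all genes tested, and 2.10, 2.32 and 2.34 with a pseudocount of 0.1, of 0.01 and with limma-voom, with all genes at -0.40, -0.38 and -0.39. Slc2a1 (0.87) and Slc2a2 (0.74) had an adjusted p of 0.00298 and 0.00875 in limma and missed only the size threshold, which both passed without the second kidney library (1.015 and 1.036), making the count 7.

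In small intestine, 4 of 10 were called higher, against 13.7% of all genes tested, and 3 lower, against 11.3%. Slc5a1, Slc2a5 (3.23), Slc2a2 (2.66) and Slc5a9 (2.16) were higher in log2 units, which are the luminal and basolateral carriers of the absorbing cell. Slc5a2 (-2.21), Slc5a10 (-1.50) and Slc2a8 (-1.10) were lower. For Slc5a2 and Slc5a10 this call, and those that follow in liver and lung, is against a mean that includes kidney. No pair among small intestine, liver and lung was called for either gene. The median was -0.01 for the 10 genes and -0.01 for all genes, but this median depended on how low values were treated. It was 0.65 with a pseudocount of 0.1, 1.48 with 0.01, 1.54 with limma-voom on the recovered reads and 1.08 for the 8 genes left by a filter of 5 FPKM, with all genes at 0.10, 0.16, 0.14 and 0.08.

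In liver, only Slc2a2 was called higher, by 1.46 ± 0.18 (SE) in log2 units (limma, adjusted p = 0.000221), against a background of 6.56%. Its mean in liver was 29.9 FPKM against 26.0 over the other tissues. Of its pairs with liver, the one with lung was called, and those with kidney and small intestine were not. Another 6 were called lower, against 32.7%, led by Slc5a1 (-3.74), Slc2a5 (-2.08) and Slc5a2 (-2.08). All 4 sodium-coupled genes were among those 6. The median of the 10 was -1.83, or -1.75 with Slc5a10 in liver set to the limit of 3 reads per library, and that of all genes -0.72. With a pseudocount of 0.01 the median of the 10 was -3.44 and with limma-voom -3.55, with all genes at -1.17 and -1.12.

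In lung, Slc2a3 alone was called higher and 6 genes were called lower. The background was 40.7% of all genes higher and 8.26% lower, and with median-of-ratios scaling it was 14.6% and 16.0%. Slc2a2 (-4.86), Slc2a5 (-3.04) and Slc5a1 (-2.88) had the largest decreases in log2 units, and all 6 remained lower under that scaling. The median of the 10 was -1.57 with all genes at 0.82, and -1.71 with all genes at -0.02 after the scaling. With limma-voom it was -2.42, with all genes at 1.22.

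**Figure D2:**
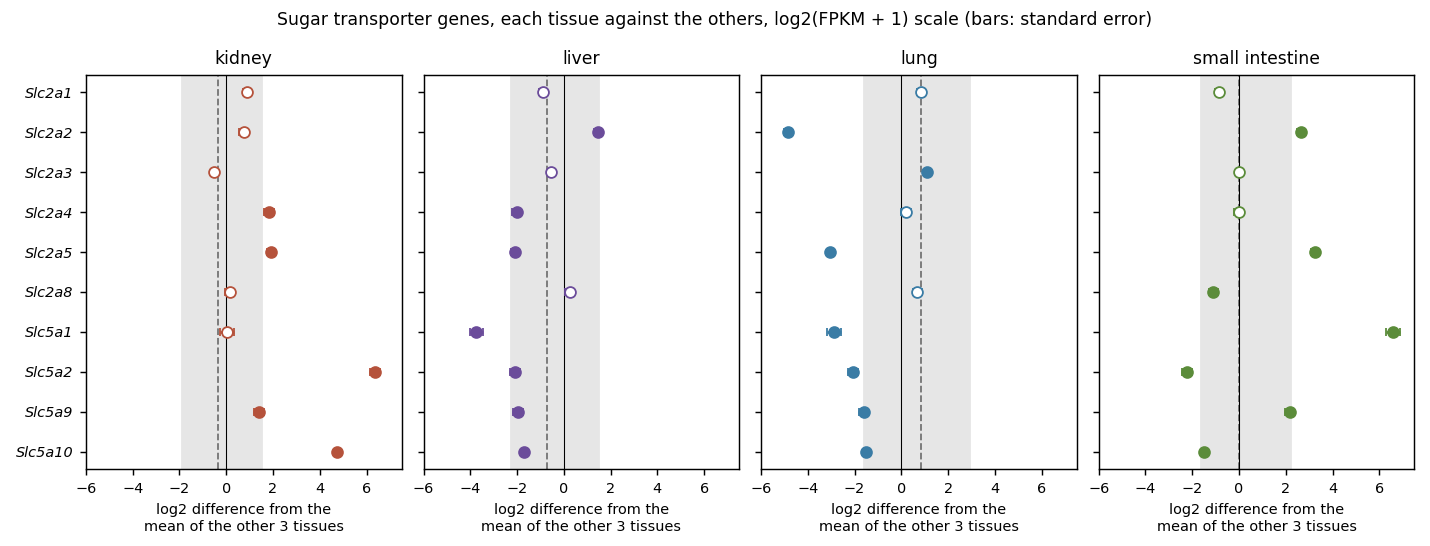
Log2 difference of each tissue from the mean of the other 3 (horizontal axes, log2(FPKM + 1) scale) for the 10 genes, with standard errors as bars, filled points for called differences, a dashed line at the median of all genes tested and a grey band from their 5th to their 95th percentile. Slc5a2 and Slc5a10 in kidney and Slc5a1 in small intestine lie far to the right of the band, at 6.35, 4.74 and 6.58.

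Of the 10 genes, 4 had their highest mean in kidney, 4 in small intestine, 2 in lung and none in liver. Slc2a1 was the one gene whose highest tissue was not set apart by both its libraries. Both libraries lay above the other 6 for 3 genes in kidney, 4 in small intestine and 2 in lung, with 8.60%, 12.8% and 51.4% of all genes tested as the respective backgrounds, and for none in liver, where the background was 5.76%. Between kidney and small intestine, 4 genes were called higher in kidney, against 10.7% of all genes, and 3 in small intestine, against 18.8%. Slc2a1, Slc2a4, Slc5a2 and Slc5a10 made up the first group, and Slc2a2, Slc2a5 and Slc5a1 the second. Kidney was higher than liver for 7 genes, against 16.2% of all genes, and lower for none, against 6.90%. Against lung, kidney was higher for 7 genes with a background of 8.87% and lower for 1, Slc2a3, with a background of 41.4%. Liver was higher than lung for 1 gene, Slc2a2, where the background was 7.21%, and lower for 3, Slc2a1, Slc2a3 and Slc2a4, where it was 55.5%. Against small intestine, liver was higher for Slc2a8 alone, with 7.89% of all genes, and lower for Slc2a4, Slc2a5, Slc5a1 and Slc5a9, with 28.3%. Lung was higher than small intestine for Slc2a1 and Slc2a8, against 30.6%, and lower for Slc2a2, Slc2a5, Slc5a1 and Slc5a9, against 10.1%. These pairwise comparisons use the same libraries as the comparisons with the mean.

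The make-up of the transporter transcripts differed by tissue. The summed FPKM of the 10 genes was 229 and 160 in kidney, 37.1 and 37.8 in liver, 17.4 and 16.9 in lung and 411 and 628 in small intestine. Sodium-coupled genes made up 73.3% ± 0.965 of this sum in kidney and 81.2% ± 5.17 in small intestine, but 15.2% ± 8.93 in lung and 2.996% ± 0.602 in liver (SD, n = 2 each). Over all 25 Slc2a and Slc5a genes in the table, the sodium-coupled share was 82.0% in kidney, 82.9% in small intestine, 24.5% in lung and 7.26% in liver. One gene led each tissue. Slc5a2 accounted for 49.6% ± 2.18 in kidney, Slc2a2 for 79.9% ± 1.997 in liver, Slc5a1 for 79.7% ± 5.401 in small intestine and Slc2a1 for 33.1% ± 5.19 in lung, where Slc2a8 followed with 27.6% ± 5.08 (SD, n = 2). The order of those 2 lung genes was the same in both libraries, with Slc2a1 1.22-fold and 1.18-fold above Slc2a8.

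**Figure D3:**
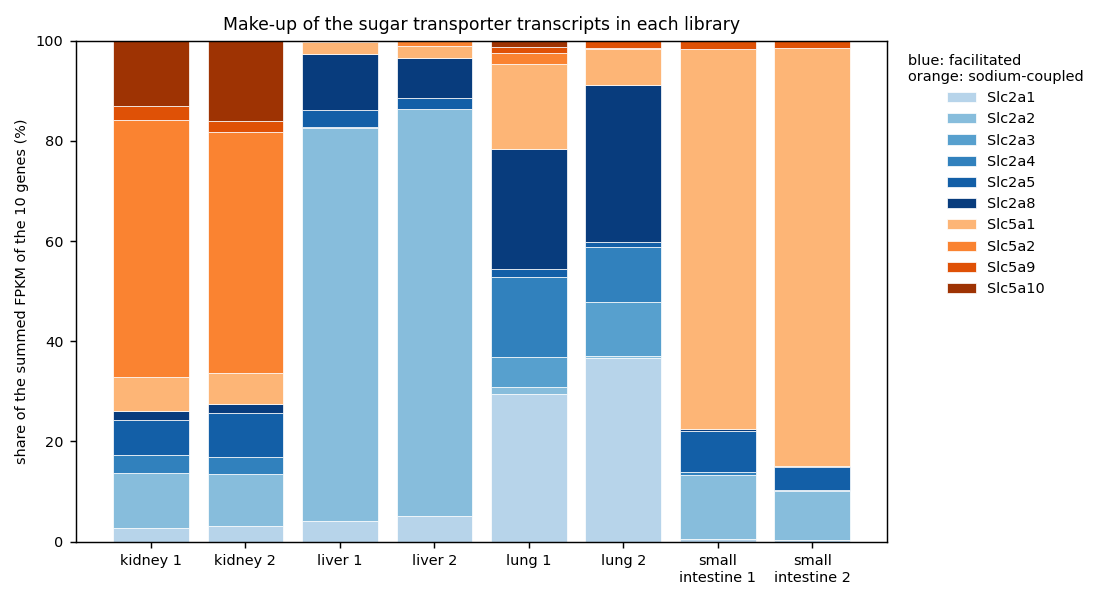
Share of each gene in the summed FPKM of the 10 transporters (vertical axis, percent) in each of the 8 libraries, with facilitated carriers in blue and sodium-coupled carriers in orange. Orange fills most of the kidney and small intestine bars (73.3% and 81.2% on average) and blue nearly all of the liver bars.

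Some ratios between genes were close in both kidney libraries. Slc5a2 was 7.43-fold and 7.76-fold above Slc5a1 and 4.66-fold and 4.69-fold above Slc2a2, although all 10 genes were higher in the first kidney library than in the second, by up to 0.75 on the log2(FPKM + 1) scale for Slc5a9, with a median of 0.22 over all genes tested. In small intestine Slc5a1 was 5.92-fold and 8.55-fold above Slc2a2. The facilitated genes together were close between the 2 intestinal libraries, at 92.2 and 94.7 FPKM, while the sodium-coupled ones were at 319 and 533. Mitochondrial genes, counted as 37 genes named mt- and 7 pseudogenes on chromosome 1, held 63.1% and 68.4% of the summed FPKM in kidney. Their share was 48.7% to 48.8% in small intestine, 40.5% to 43.6% in liver and 22.8% to 25.4% in lung. Levels set between tissues also depend on that share.

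The other sugar and polyol transporters numbered 16, of which 13 could be tested. Small intestine had 4 higher and 1 lower, kidney 3 and 3, liver 1 and 7 and lung 4 and 5, against 13.7% and 11.3%, 8.65% and 16.1%, 6.56% and 32.7%, and 40.7% and 8.26% of all genes tested. Their medians were 0.09, -0.60, -1.01 and -0.15, with -0.01, -0.34, -0.72 and 0.82 over all genes. The 4 higher in small intestine were Slc5a4b (5.16) and Slc5a4a (4.81), the mouse relatives of the SGLT3 glucose sensor, the myo-inositol carrier Slc5a11 (3.88) and Slc2a7 (3.75) in log2 units. Slc5a4b, Slc5a4a and Slc2a7 were at most at 0.363 FPKM elsewhere and passed the filter on low values through small intestine alone, so their calls there are a description. Slc2a7 lies 4.802 kb from Slc2a5 on chromosome 4 with no protein-coding gene between them. It was at 12.5 and 13.1 FPKM in small intestine and at most 0.0749 elsewhere, whereas Slc2a5 was also high in kidney. In kidney, the osmolyte carrier Slc5a3 was higher by 2.04, though its libraries were far apart at 11.5 and 2.54 FPKM, and Slc5a11 by 1.94. Slc37a4, which brings glucose 6-phosphate into the endoplasmic reticulum, was higher by 1.67. In lung, Slc50a1, a SWEET family sugar carrier, was at 50.5 and 52.1 FPKM, 2.54 above the other tissues in log2 units, more than any of the 10 transporters in that tissue. Under median-of-ratios scaling 2 of these genes were called higher in lung and 7 lower, against 14.6% and 16.0% of all genes. The liver call of Slc5a3 (-1.01) was lost in 7 of the 8 fits that left out a library.

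Sodium-coupled relatives that carry other solutes had 3 of 5 genes tested. The lactate and monocarboxylate carriers Slc5a8 (4.46) and Slc5a12 (3.72) were higher in kidney, and both were called lower in each of liver and lung, although the Slc5a8 call in lung (limma, adjusted p = 0.0284) was lost in 5 of the 8 fits that left out a library. The median of the 3 was 3.72 in kidney, -2.57 in liver, -1.70 in lung and 0.40 in small intestine, against -0.34, -0.72, 0.82 and -0.01 for all genes tested. Of all genes, 8.65% were called higher in kidney, 13.7% higher in small intestine, 32.7% lower in liver and 8.26% lower in lung. In small intestine Slc5a12 was called higher (2.30), with 13.3 and 34.2 FPKM in its 2 libraries. Slc5a8 was at 0.481 and 8.02 FPKM there and was called higher without the first intestinal library and lower without the second.

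**Figure D4:**
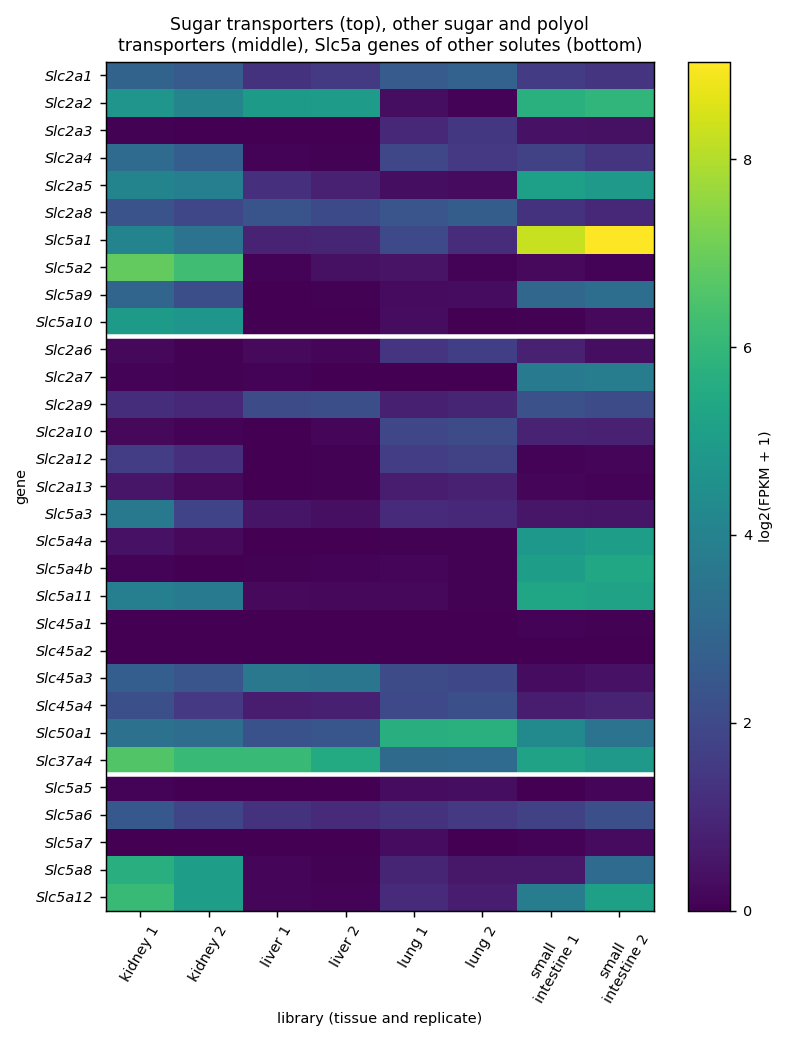
Level of the 10 transporters and of 21 further transporter genes in the 8 libraries as a colour on the log2(FPKM + 1) scale (rows: genes, columns: libraries). Slc2a7, Slc5a4a and Slc5a4b are bright in small intestine alone, with at most 0.363 FPKM elsewhere, and Slc50a1 is brightest in lung at 50.5 and 52.1 FPKM.

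Enzymes on either side of transport were counted next. All 4 disaccharidases, which free hexoses at the brush border, were called higher in small intestine, with Sis at 7.74, Lct at 6.84, Treh at 5.64 and Mgam at 5.25 in log2 units. Sis and Lct, at most at 0.686 FPKM elsewhere, passed the filter on low values through that tissue alone, so the count is a description. Treh was also called higher in kidney (2.19). In lung all 4 were called lower, in liver 3 and in kidney 2, each against a mean that includes small intestine. Outside small intestine, mean Sis in lung was 2.93-fold and in liver 2.57-fold that in kidney. For Lct these were 2.11-fold and 1.54-fold, while Mgam and Treh were lowest in lung. The shares over all genes tested were 13.7% higher in small intestine and 8.65% in kidney, and 8.26% lower in lung, 32.7% in liver and 16.1% in kidney. The medians of the 4 were 6.24 in small intestine, -1.57 in kidney, -2.37 in liver and -3.17 in lung, with -0.01, -0.34, -0.72 and 0.82 over all genes. Of 9 genes of sugar phosphorylation and glucose release, kidney had 4 higher and 3 lower, with 2 and 4 in liver, 2 and 2 in lung and 2 and 2 in small intestine, against 8.65% and 16.1%, 6.56% and 32.7%, 40.7% and 8.26%, and 13.7% and 11.3% of all genes tested. The medians were 0.38, 0.10, -0.42 and 0.05, with -0.34, -0.72, 0.82 and -0.01 over all genes. G6pc, the catalytic subunit that releases free glucose, was called higher in kidney (3.12) and liver (3.08). Ketohexokinase, Khk, the first enzyme of fructose breakdown, was called higher in kidney (1.90) and small intestine (1.80). In liver, where Slc2a5 was low, Khk stood 0.50 above the other tissues (limma, adjusted p = 0.00668), short of the size threshold, and was called higher with median-of-ratios scaling. Hkdc1 was called higher in small intestine (5.004) and Hk1 and Hk2 in lung (1.46 and 1.45), and these last 2 calls were lost with median-of-ratios scaling.

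Among 13 partners and regulators of the transporters, 12 were tested. In kidney 7 were called higher and none lower, in small intestine 5 and 2, in liver 2 and 6 and in lung 1 and 6, against 8.65% and 16.1%, 13.7% and 11.3%, 6.56% and 32.7%, and 40.7% and 8.26% of all genes tested. The medians were 2.06 in kidney, 0.47 in small intestine, -1.21 in liver and -0.96 in lung, with -0.34, -0.01, -0.72 and 0.82 over all genes. Pdzk1ip1, whose product MAP17 binds SGLT2 and raises its activity, was at 197 and 224 FPKM in kidney and at most 14.3 elsewhere, a difference of 5.38 ± 0.14 (SE) in log2 units. Fxyd2, a subunit of the sodium pump, had the largest difference of the list in kidney (7.36). It was at most at 1.48 FPKM elsewhere and passed the filter on low values through kidney, so its call there is a description. Atp1b1, another subunit of the pump, was called higher in kidney (2.83) and small intestine (1.76). Hnf4a was called higher in kidney (2.04), small intestine (1.83) and liver (1.61) and lower in lung (-5.49). Slc2a2 was near 0 in lung as well, and a link to Hnf4a was not tested. Txnip, an inhibitor of glucose uptake, was called higher in lung (2.71), and Rsc1a1 had no read in any library.

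For each of the 10, the 2 genes with the most similar profile were found among 13918 candidates, by the root-mean-square distance between centred log2(FPKM + 1) values over the 8 libraries. Slc5a2 was closest to Slc22a8, the organic anion carrier OAT3 (0.15), and to Kcnj16 (0.17). Slc5a10 was closest to Atp6v1g3 and Serpina1f (0.15 each), Slc5a1 to Olfm4 (0.33) and Cdhr2 (0.36), and Slc5a9 to Fam213a (0.26) and Bpnt1 (0.27). Among the facilitated carriers Slc2a2 was closest to Nlrp6 (0.24) and to Tkfc (0.39), which encodes a kinase of fructose breakdown, and Slc2a5 to Lad1 (0.35) and to the sodium-proton exchanger Slc9a3 (0.38). Slc2a4 was closest to Csrp2 (0.27) and Galnt3 (0.29), Slc2a1 to Bbs7 (0.10) and Gata3 (0.11), Slc2a8 to Actr6 (0.08) and Plbd2 (0.12), and Slc2a3 to Carmil2 and Hrc (0.05 each). Within the 10, the nearest other transporter was Slc2a8 for Slc2a1 (0.54) and for Slc2a3 (0.61), Slc2a1 for Slc2a4 (0.71), Slc5a10 for Slc5a2 (0.72) and Slc5a9 for Slc2a5 (0.73). Genes with a small range over the tissues have small distances by construction, so the distances rank candidates for a gene and are not comparable between genes.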

How the data were processed

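Polyadenylated RNA of 4 mouse tissues was sequenced with 2 libraries per tissue. Per the study's methods, reads were sorted by index with bbduk, mapped with STAR 2.5.3a to the mouse genome of Ensembl, and the authors computed FPKM with DESeq2. The counting tool and strand setting are not given in the sources used here. The deposited values are FPKM by gene symbol, and every value column has a sample. The library kit is not described as marking strand. Of the symbols, 51844 (99.3%) matched a single gene of GENCODE M21 (GRCm38), the source of gene coordinates.

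Read numbers were inferred from the step between low FPKM values. Per library, 94.5% to 96.1% of values under 50 reads were whole within 0.02 reads. Recovered reads set the depth and a limit of 3 reads for a value of 0, which covers counting error only.

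Values were transformed as log2(FPKM + 1). Genes reaching 1 FPKM in 2 or more libraries entered a fit with limma 3.58.1 in R 4.3.3 (lmFit, contrasts.fit, eBayes with trend) over all 8 libraries, with Benjamini-Hochberg adjustment over the 16328 genes of each comparison. Fold changes on this scale are understated for low genes. The procedure was tested on simulated data. Promoter windows came from RefSeq (GRCm38.p6) and covered 6 of the 10 genes.

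The transporters, the gene lists and the tests were chosen with earlier results of these data known. Named were the 10 transporters, the 2 most similar genes of each (symbols ending in Rik or of the form Gm with a number left out), and of each list up to 4 called genes with large differences, with further list genes named after their values were seen. Some genes of the lists are counted but not reported by name here. Alternatives covered the pseudocount, the filter, the scaling, the eBayes trend, limma-voom on recovered reads, a replicate block and each library left out.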

Additional observations from a re-analysis of the deposited data

How the results depend on the processing

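With 2 libraries per tissue, every fit without a library left a tissue with 1, assumed to vary like the rest. The counts of transporters called higher in kidney and in small intestine and lower in liver, lung and small intestine stayed within 1.5 times under every alternative. The count called lower in kidney was 1 (Slc2a3) instead of 0 with a pseudocount of 0.1 or 0.01 and with limma-voom. The count called higher in liver was 2 instead of 1 with median-of-ratios scaling or quantile normalization, where Slc2a8 joined (1.09 and 1.05). The count called higher in lung, 1 in the report, was 2 with a pseudocount of 0.1 or equal summed FPKM and 3 with a pseudocount of 0.01 or limma-voom. It was 0 with a filter of 5 FPKM, which leaves Slc2a3 untested, and 0 with median-of-ratios scaling, quantile normalization or equal sums without mitochondrial genes. With each library left out it ranged from 0 to 1. Slc2a3 in lung was 0.66, 0.34 and 0.97 under those 3 scalings. Apart from the untested Slc2a3, the cause of these shifts was not tested. Median-of-ratios scaling moved the median of all genes from 0.82 to -0.02 in lung, from -0.72 to -0.14 in liver and from -0.34 to -0.11 in kidney.

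Slc2a3 in small intestine turned from -0.02 to 1.88 with a pseudocount of 0.01 (adjusted p = 0.0324) and to 2.07 with limma-voom (adjusted p = 0.0120). Slc5a10, at 0 to 5 reads outside kidney, was no longer called lower in small intestine with a pseudocount of 0.01 (-1.18, adjusted p = 0.440) or limma-voom (-1.48, adjusted p = 0.219), nor in lung with a pseudocount of 0.01 (-2.69, adjusted p = 0.0645). Slc2a1 passed the size threshold in all 4 comparisons with a pseudocount of 0.1 or 0.01 and with limma-voom. Over all 25 Slc2a and Slc5a genes, the leading shares were 31.2% for Slc5a2 in kidney, 69.5% for Slc2a2 in liver, 18.4% for Slc2a1 in lung and 61.4% for Slc5a1 in small intestine. As shares of reads, Slc5a2 in kidney was 43.0% and Slc2a2 in liver 87.0%.

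Whether a replicate number marks the same mouse across tissues is not known from the labels. The correlations of deviations between libraries of the same number were -0.22 to 0.05, and the numbers were not used as pairs. A fit with the replicate number as a block called 5 transporters higher in kidney, 4 in small intestine and 1 each in liver and lung, and changed no call of the 10 genes. Values of a few reads, as for Slc5a2 and Slc5a10 outside kidney, were not resolved at this depth.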
